A study of Homo sapiens with 12 samples.

Results

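T98G and U251 are established human cell lines, both grown from glioblastoma, and here both lines over-expressed PEPD. The comparison set the 3 T98G PEPD-OE libraries against the 3 U251 PEPD-OE libraries, 6 of the 12 libraries of the series, over all genes of the deposited count table. It asks which differences between the lines are seen when both carry high PEPD. The other 6 libraries, 3 of each line with the label NC, which is nowhere spelled out, served as a separate comparison of the same lines. The 2 comparisons share no library. Over-expression is taken from the series title, which pairs it with the label PEPD-OE. The sources used here do not give the construct, its promoter or how the cells were selected, nor whether the 3 replicates of a group were grown as separate cultures. The spread behind the p-values may therefore be only technical. Each line is represented by 1 PEPD-OE population as far as the labels say, so a difference between the lines and a difference between those populations cannot be told apart.

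PEPD encodes prolidase, the peptidase that releases proline and hydroxyproline from the ends of dipeptides, many of which come from the breakdown of collagen. Glioblastoma cells occupy states that resemble neural stem cells, astrocytes, oligodendrocyte precursors or mesenchymal cells, and long-cultured lines differ in which of these programmes they keep. Neural-like cells carry SOX2 and the filament proteins nestin and GFAP, while mesenchymal-like cells secrete collagens, matrix proteases and growth factor binding proteins.

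The 6 libraries held 683172 to 924204 counts. Levels are given as CPM, a gene's share of each 1000000 counts of tested genes after scaling between libraries, so that 3 counts equalled 3.2 to 4.67 CPM in these libraries. Abundant transcripts were often counted under a gene that overlaps them on the other strand. BEST1, whose exons overlap the ferritin heavy chain gene FTH1, held 263472 counts against 5428 under FTH1 itself. TALAM1 likewise held 131042 counts in the 6 libraries, against 2493 under MALAT1 on the other strand. A gene whose exons share bases with an exon of the other strand is therefore written with its partner, as in BEST1 (opposite FTH1). Reads of the pair cannot be told apart. Genes with such an overlap held 62.2% to 70.1% of the counts of the 6 libraries. The strand setting of the counting is not stated, and whether it was reversed was not tested. Genes without a partner may therefore also hold only part of their reads. Low or absent counts of such genes need not mean low expression, and leaving out genes with a partner does not settle this.

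The T98G PEPD-OE library of replicate 2 stood apart in transcripts of blood cells, which neither line is known to make. HBB, a beta globin gene, stood at 5.92, 4098 and 18.5 CPM in the 3 T98G PEPD-OE libraries and at 49.7, 71.6 and 0 in the 3 U251 PEPD-OE libraries. The T98G NC library of replicate 2 was also high, at 2218 CPM against 44.3 and 37.6 in replicates 1 and 3. In T98G PEPD-OE replicate 2, HBA2 stood at 494 CPM, S100A9 at 79.5, LYZ (opposite AC020656.1) at 42.1 and PTPRC at 39. These genes were picked for their values. The 10 macrophage and microglia markers summed to 5.70 to 65.4 CPM in T98G PEPD-OE and to 3.58 to 10.5 in U251 PEPD-OE, with 3 of the 10 at 0 counts in all 6 libraries. Named genes whose call changed without this library (MPG, MAGED2 and B2M) are given below with and without it, as are the lists named below whose calls in either direction moved by 2 or more, or to or from 0.

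The labelled tumour type was checked against 12 glioblastoma and astroglial markers, which summed to 1251 to 1434 CPM in T98G and to 3686 to 4238 CPM in U251. VIM (opposite VIM-AS1) and CD44 (opposite CD44-AS1) were present in both lines. SOX2, NES and NEFL were near the limit of detection in T98G, as described below. OLIG2, a factor of the oligodendrocyte lineage, had 0 counts in all 6 libraries, and CDH1 (opposite AC099314.1), the epithelial cadherin, had 1 and 2 counts. The 10 epithelial markers summed to 99.1 to 115 CPM in T98G and to 65.1 to 91.9 in U251. Most of that sum was CLDN4, a tight junction claudin, at 97.6, 98.2 and 108 CPM in T98G and 85.9, 64.5 and 61.9 in U251 (log2 fold change 0.54, adjusted p = 0.00754), the 1 member with enough counts to be tested. Without U251 PEPD-OE replicate 3 the CLDN4 call was lost (0.44, edgeR adjusted p = 0.0599). In NC CLDN4 was called the other way, higher in U251 (-2.07), and its interaction was called. Endothelial markers summed to at most 20.3 CPM in T98G and 31.6 CPM in U251.

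PEPD itself did not pass the test between the lines. It stood at 175, 156 and 162 CPM in T98G PEPD-OE and at 170.3, 167 and 187 in U251 PEPD-OE, and the ranges overlapped. The log2 fold change, T98G minus U251, was -0.09 (SE 0.14, edgeR adjusted p = 0.613). In the NC libraries the means were 11 ± 8.20 and 9.55 ± 3.44 CPM (SD, n = 3). PEPD lies on chromosome 19, 33386950 to 33521794 of GRCh38, the build used for all gene positions here.

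Over all genes, 4617 of 8773 tested genes (52.6%) differed between the PEPD-OE lines in edgeR's quasi-likelihood test, with a Benjamini-Hochberg adjusted p under 0.05. Genes that passed this threshold are named called genes here. Of these, 2311 were higher in T98G (26.3% of the tested genes) and 2306 in U251 (26.3%). The difference was at least 2-fold in 2873 and at least 16-fold in 357. The 3 T98G and 3 U251 libraries did not overlap for 4906 genes (55.9%). Counts of members below are read against these shares.

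Most of the large differences also stood in the NC libraries. There, 4273 genes (48.7%) differed between the lines, 2137 higher in T98G (24.4%) and 2136 in U251 (24.3%). In all, 2436 genes (27.8%) were called in both conditions in the same direction, which is 52.8% of the PEPD-OE calls and 57.0% of the NC calls. Among PEPD-OE differences of at least 16-fold, 327 of 357 (91.6%) were called the same way in NC. Among those under 2-fold the share was 42.6%, or 743 of 1744. A further 369 genes were called in both conditions in opposite directions, 8.0% of the PEPD-OE calls and 8.6% of the NC calls.

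The difference between the 2 line differences was tested directly as an interaction, the log2 fold change in PEPD-OE minus that in NC. It was called for 2428 genes (27.7%), with 1239 positive (14.1%) and 1189 negative (13.6%). Of the genes called the same way in both conditions, 1932 had no called interaction, 341 differed more under PEPD-OE and 163 differed less. Of the 1812 genes called in PEPD-OE alone, 848 also had a called interaction. The other genes of that group passed the test in one condition and not in the other, without a called difference between them.

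**Figure D1:**
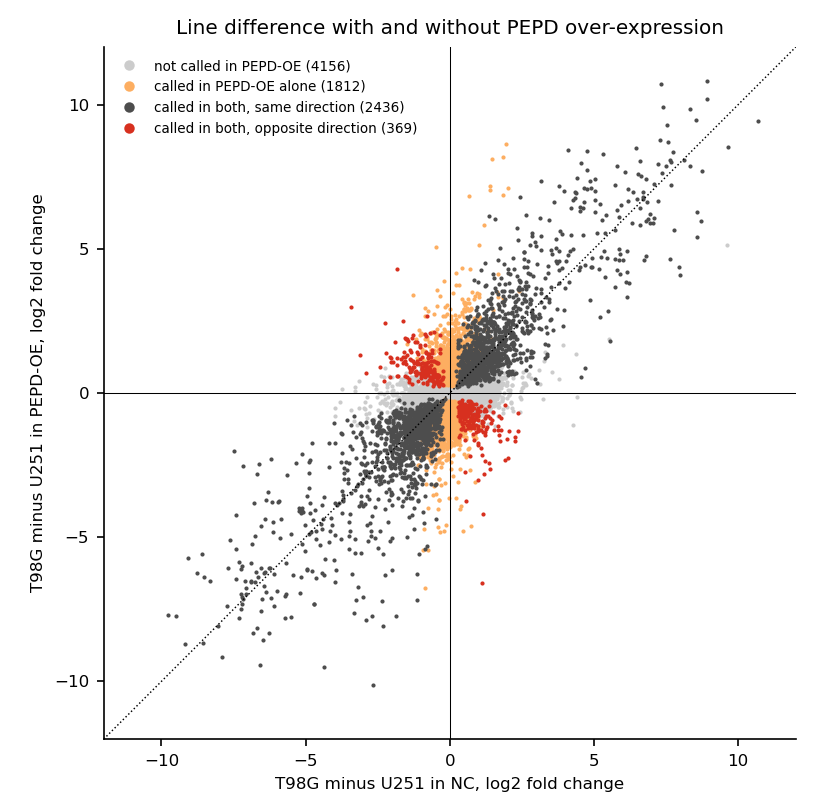
Each point is 1 of the 8773 tested genes, with its log2 fold change, T98G minus U251, in the NC libraries on the x axis and in the PEPD-OE libraries on the y axis. The 2436 genes called in both conditions in the same direction (dark) spread along the dotted line of equal values, and the 369 called in opposite directions (red) lie in the other quadrants.

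Genes of the neural stem cell programme were higher in U251, most of them in both conditions. SOX2, a transcription factor of neural stem cells, stood at 273, 318 and 238 CPM in the U251 PEPD-OE libraries. In the T98G PEPD-OE libraries it stood at 0, 1.56 and 0 CPM, 1 count in all. The ratio of scaled counts, U251 over T98G, was 555 (95% counting interval 99.3 to 21957, edgeR adjusted p = 8.25e-53). SOX2 lies on chromosome 3, 181711924 to 181714436, inside the transcript SOX2-OT (opposite DNAJC19), whose counts were 0 in T98G and 115 in U251. NES, which encodes the stem cell filament nestin, stood at 1.48, 3.12 and 2.85 CPM in T98G and 365, 329 and 350.3 in U251 (log2 fold change -7.04, SE 0.27, adjusted p = 1.23e-56). Both genes were also high in U251 under NC, at 381 ± 40.2 and 370.5 ± 31.4 CPM, and neither interaction was called.

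GFAP (opposite CCDC103), the filament protein of astrocytes, stood at 44.4, 70.1 and 82.6 CPM in T98G and 865, 932 and 994 in U251, with no overlap (log2 fold change -3.82, SE 0.13, adjusted p = 3.63e-63). Counts under CCDC103 followed, at 1.42 ± 2.47 CPM in T98G and 112 ± 8.53 in U251. The GFAP difference was smaller than in NC, where it was -4.86 (interaction 1.04, adjusted p = 1.43e-05). NEFL (opposite AC107373.2), a neurofilament, had 2 counts in T98G and stood at 229, 283 and 232 CPM in U251. VIM (opposite VIM-AS1), the filament of mesenchymal and glial cells, was abundant in both lines but higher in U251, at 1573 ± 238 against 474 ± 24 CPM. Of 11 tested intermediate filament genes, 9 were higher in U251 and 0 in T98G, with a median log2 fold change of -1.80 against -0.04 over all tested genes. In NC, 7 of them were higher in U251 and 4 in T98G.

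Of 18 tested neural and glioma stem factors, 13 were higher in U251 and 2 in T98G (median -1.94), and 14 were called the same way in NC. The 7 neuron markers summed to 20.3 to 26.6 CPM in T98G and 37.7 to 41.6 in U251, and their part was not tested. SYT1 (opposite AC090709.1) and GAD1 were higher in U251, at means of 27.7 and 7.75 CPM against 0.52 and 0. RBFOX3, SNAP25 and SYP were higher in T98G, at 7.01, 8.30 and 6.41 CPM against 0.71, 2.72 and 0.71. Only SYT1 had enough counts for the test. The 6 oligodendrocyte markers summed to 214 to 274 and 359 to 446 CPM, most of it CNP (238 and 391), and their part was not tested. Opposite partners of these markers other than SYT1 are not given here. POU3F2, a neural transcription factor, had 1 count in T98G and stood at 70.8, 50.1 and 49.1 CPM in U251. FABP7, the fatty acid binding protein of radial glia, had 0 counts in T98G and 31 in U251, at least 8.56-fold higher. ID4, an inhibitor of differentiation, had 0 counts in T98G and was at least 15.2-fold higher in U251. SOX9, a glial factor, stood at 31 ± 6.97 CPM in T98G and 101 ± 7.44 in U251 (log2 fold change -1.70, adjusted p = 1.06e-12). In NC its log2 fold change was -0.19 (adjusted p = 0.396), and the interaction was called (adjusted p = 3.03e-06).

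SOX11, another neural factor, went the other way. It stood at 32.5, 26.5 and 41.3 CPM in T98G and had 0 counts in U251, at least 27.4-fold higher (adjusted p = 5.91e-16). DLX6-AS1 (opposite RF01888), a transcript of the forebrain interneuron lineage, stood at 189.8, 179 and 176 CPM in U251 with 1 count in T98G. SLC1A3, a glutamate transporter of astrocytes, was also higher in U251, at 29.6 ± 9.08 against 3.92 ± 1.54 CPM (log2 fold change -2.86, adjusted p = 1.12e-08). GLUL, glutamine synthetase, was higher in T98G (log2 fold change 2.12, adjusted p = 8.76e-16). The tested genes of the astrocyte-like state were split, 4 higher in T98G and 4 in U251 of 9. So were those of the mesenchymal-like state, 10 and 8 of 25. Within the latter, the complement proteases C1R and C1S were higher in T98G, at 143 ± 30.7 and 182 ± 18.5 CPM against 1.82 ± 2.20 and 2.87 ± 0.427. CD44 (opposite CD44-AS1), the hyaluronan receptor, was higher in T98G by 1.00 on the log2 scale (adjusted p = 1.72e-16).

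**Figure D2:**
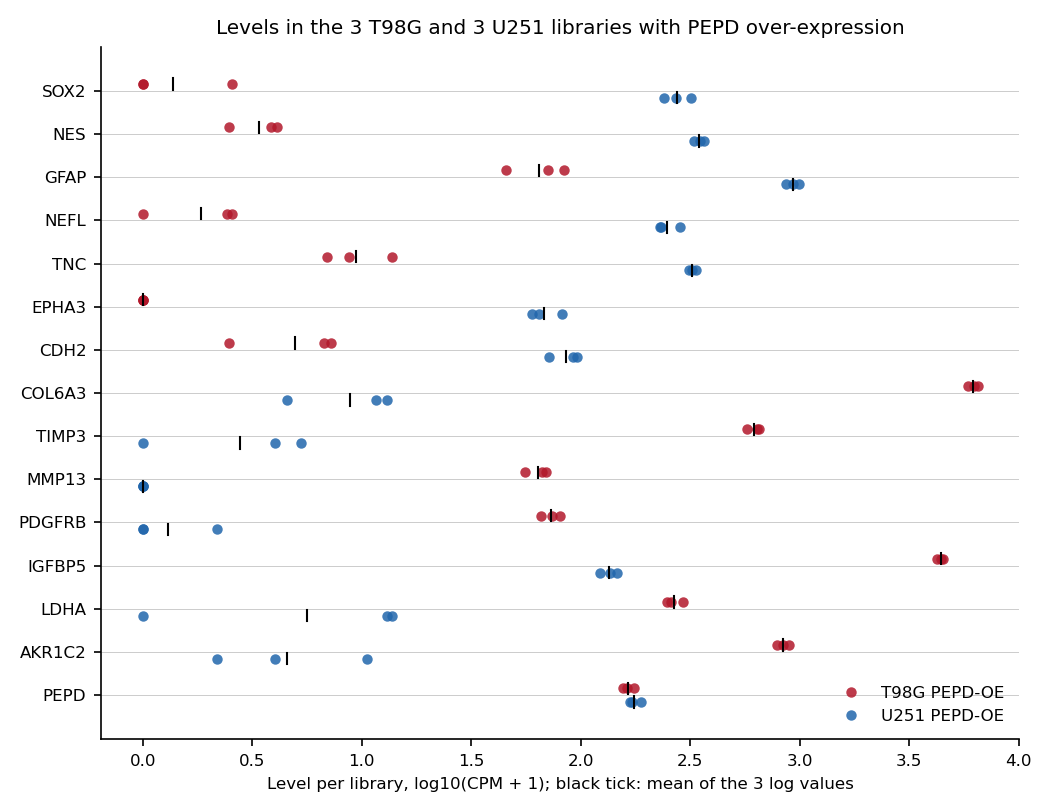
Each point is 1 library, red for T98G PEPD-OE and blue for U251 PEPD-OE, at log10 of its CPM plus 1, and the black ticks are means of the 3 log values. SOX2, NES and TNC sit to the right in U251, COL6A3, TIMP3 and IGFBP5 in T98G, and the 6 PEPD values overlap.

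T98G expressed the collagen programme at higher levels. COL6A3, a chain of the beaded filament collagen VI, stood at 5902, 6254 and 6492 CPM in T98G and at 12.1, 3.58 and 10.7 in U251 (log2 fold change 9.47, SE 0.14, adjusted p = 2.54e-115). It lies on chromosome 2, 237324003 to 237414375, and its interaction was not called (adjusted p = 0.0746). The other collagen VI chains differed far less, with log2 fold changes of 1.96 for COL6A1 and 2.46 for COL6A2. COL7A1, the anchoring fibril collagen, stood at 328 ± 12 CPM in T98G and 13.1 ± 6.84 in U251. Of 17 tested collagen chains, 12 were higher in T98G and 3 in U251 (median 1.96). The exceptions were COL11A1, COL4A5 and COL13A1. COL11A1 had 0 counts in T98G and stood at 73.8, 70.4 and 49.1 CPM in U251, at least 42.5-fold higher. In NC, 12 of the 17 chains were higher in T98G and 4 in U251 (median 1.49). The interaction was called positive for 6 of the 17 chains and negative for 3. COL1A2, a chain of collagen I, was called in opposite directions: it was higher in T98G under PEPD-OE (0.62) and higher in U251 under NC (-1.18). COL6A1, COL6A2, COL4A5 and COL13A1 were named after their values were seen. The 9 fibroblast markers, among them 3 collagen chains and PDGFRB, summed to 626 to 763 CPM in T98G and 338 to 433 in U251, with 2 at 0 counts in all 6 libraries, and their part was not tested.

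The enzymes that modify and crosslink collagen differed in 1 direction. Of 21 tested, 13 were higher in T98G, none in U251, and 8 did not pass (median 0.93). Without T98G PEPD-OE replicate 2 the count was 12 higher and 1 lower of 22. In NC, 8 were higher in T98G and 2 in U251, and 10 had a positive and 1 a negative called interaction. LOXL2 (opposite LOXL2-AS1), a lysyl oxidase, stood at 445, 435 and 533 CPM in T98G and 93.4, 111 and 122 in U251, an adjusted p of 6e-34. P4HA2 (opposite P4HA2-AS1), a prolyl hydroxylase, stood at 45.7 ± 7.70 against 12.1 ± 2.78 CPM under PEPD-OE. Its line difference was 1.92 in PEPD-OE and 0.10 in NC, and the interaction was called (adjusted p = 0.00114). PCOLCE (opposite PCOLCE-AS1), which helps cleave procollagen, stood at 69.5, 60.8 and 64.1 CPM in T98G against 3 counts in U251.

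Among proteases and their inhibitors, the members named here were higher in T98G, though their list was split. MMP13, a collagenase, stood at 54.7, 68.6 and 65.5 CPM in T98G with 0 counts in U251, at least 51.1-fold higher (adjusted p = 2.5e-26). MMP1 (opposite WTAPP1), another collagenase, was at least 25.3-fold higher, with 0 counts in U251. TIMP3, a matrix-bound inhibitor of these enzymes, stood at 571, 640.4 and 652 CPM in T98G and 3.01, 0 and 4.27 in U251 (log2 fold change 7.88, adjusted p = 5.51e-71). MMP2, a gelatinase named after its values were seen, was higher in T98G by 3.25. Over the list, 9 of 25 were higher in T98G and 7 in U251 (median 0.06), against 26.3% of all tested genes in each direction.

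Matrix glycoproteins were more often higher in U251, 16 of 33 tested against 11 in T98G. TNC (opposite DELEC1), the glioma matrix protein tenascin C, stood at 334, 310.4 and 321 CPM in U251 and 5.92, 7.79 and 12.8 in T98G (log2 fold change -5.15, adjusted p = 4.11e-51). In NC the T98G libraries stood at 41.5 ± 12.3 CPM and the U251 libraries at 308 ± 26.3, and the interaction was called (adjusted p = 5.95e-09). SPP1, osteopontin, had 3 counts in T98G and stood at 55.7, 88.3 and 111 CPM in U251, a ratio of 59.4 (95% counting interval 20.0 to 290.2). EFEMP1, a fibulin, stood at 102 ± 11.5 CPM in U251 and 2.89 ± 2.85 in T98G. In T98G, FN1 (fibronectin, named after its values were seen) was higher by 3.16 and HSPG2 (perlecan, opposite LDLRAD2) by 4.11 on the log2 scale, both called.

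Adhesion receptors differed by member. Of 13 tested integrins, 8 were higher in T98G and 4 in U251, and without T98G PEPD-OE replicate 2 the counts were 6 and 4 of 14. ITGB4, a laminin receptor subunit, stood at 205, 215 and 258 CPM in U251 and 7.40, 4.67 and 5.70 in T98G (log2 fold change -5.22, adjusted p = 1.04e-44). ITGA7 (opposite TMT1B), also a laminin receptor subunit, stood at 133 ± 40.4 CPM in U251 with 3 counts in T98G. ITGA11, a collagen receptor subunit, was higher in T98G, at 51.4 ± 12.6 against 6.03 ± 2.62 CPM. CDH2 (opposite AC110015.1), N-cadherin, stood at 70.8, 95.5 and 90.8 CPM in U251 and 1.48, 6.23 and 5.70 in T98G (log2 fold change -4.23, adjusted p = 3.23e-24), with a smaller difference in NC (-1.30, adjusted p of the interaction = 4.5e-07). The protocadherins were split as well: PCDH17 (opposite AL445288.1) and PCDH10 had 0 counts in T98G, at least 78.2-fold and 11.3-fold higher in U251. PCDH18 stood at 37, 40.5 and 48.4 CPM in T98G with 2 counts in U251.

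Of 13 tested growth factor receptors, 6 were higher in U251, 1 in T98G and 6 did not pass. PDGFRB, the platelet-derived growth factor receptor of mesenchymal cells, stood at 65.1, 73.2 and 79.8 CPM in T98G with 1 count in U251, a ratio of 177 (95% counting interval 31.4 to 7055). PDGFRA, its relative of oligodendrocyte precursors, was low in both, at 5.49 ± 2.36 and 14.8 ± 2.75 CPM, and higher in U251 (adjusted p = 0.0101). Without T98G PEPD-OE replicate 3 the call was lost (-1.09, adjusted p = 0.0784). The ephrin receptors EPHA3 and EPHA2 were higher in U251. EPHA3 had 0 counts in T98G and stood at 63.3, 81.2 and 58.7 CPM in U251, at least 45.6-fold higher. EPHA2 stood at 371 ± 28.3 against 24.9 ± 4.12 CPM. MET, the hepatocyte growth factor receptor, was also higher in U251 (-1.64, adjusted p = 1.26e-08). EGFR (opposite EGFR-AS1), the receptor most often altered in glioblastoma, stood at 59.2, 56.1 and 48.4 CPM in T98G and 51.2, 54.9 and 53.4 in U251 and did not pass the test (0.03, SE 0.21, adjusted p = 0.911). In NC it was higher in T98G by 1.72 (adjusted p = 1.33e-12), and the interaction was called (adjusted p = 1.28e-06).

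Of 12 tested insulin-like growth factors and their binding proteins, 4 were higher in T98G and 5 in U251, and 4 had a positive and 3 a negative called interaction. IGFBP5 (opposite AC007563.2) stood at 4434, 4252 and 4516 CPM in T98G and 122, 135 and 145 in U251 (log2 fold change 5.03, adjusted p = 2.48e-93). IGFBP4 was higher in T98G by 4.15, and IGFBP7 (opposite POLR2B) was higher in U251 (-2.92). The differences of IGFBP5 and IGFBP4 were larger than in NC (adjusted p of the interactions = 3.1e-15 and 0.000719). That of IGFBP3 was smaller, 1.81 in PEPD-OE against 5.57 in NC (adjusted p of the interaction = 2.53e-10). TNFRSF11B, the decoy receptor osteoprotegerin, stood at 170.1, 159 and 165 CPM in T98G with 0 counts in U251, at least 134-fold higher. CXCL12, a chemokine, was at least 20.1-fold higher in T98G. IL13RA2, the decoy receptor for interleukin 13 known from glioblastoma, stood at 58.8, 70.4 and 53.4 CPM in U251 with 1 count in T98G. CD70, a ligand of the tumour necrosis factor family, was at least 36.2-fold higher in U251. PRKG1-AS1 (opposite DKK1, an inhibitor of Wnt signalling) had 0 counts in T98G and stood at 173, 201 and 190.1 CPM in U251, while DKK1 itself stood at 0.519 ± 0.9 and 140.1 ± 5.31 CPM.

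Other genes with the largest differences and no opposite partner were, in T98G, CLSTN2 (a synaptic calsyntenin), NPTX1 (a neuronal pentraxin), FENDRR (a long non-coding RNA), G0S2 (an inhibitor of lipolysis), PLIN2 (a lipid droplet coat protein), SLPI (a protease inhibitor) and SPATA31H1. They stood at 34.8 to 105 CPM in T98G with 0 counts in the U251 PEPD-OE libraries, at least 28.2-fold to 85.3-fold higher. In U251 they were PDE1C (a phosphodiesterase), RGS4, PDLIM4, CPA4, RNLS and C6orf141. PDE1C stood at 252, 246 and 219 CPM in U251 with 2 counts in T98G, and the other 5 had 0 counts in T98G. Counts under MSC-AS1 (opposite TRPA1), FOXD1-AS1 (opposite FOXD1) and TP53I11 (opposite TSPAN18) were at least 231-fold, 95.4-fold and 56.7-fold higher in T98G. All of these were called in the same direction in NC.

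Interferon-stimulated genes were the list with the most members higher in U251 under PEPD-OE. Of 63 tested, 55 were higher in U251, 3 in T98G and 5 did not pass, with a median log2 fold change of -2.64. In NC, 34 were higher in U251 and 7 in T98G, with a median of -0.48. The interaction was negative and called for 45 of the 63 (13.6% over all genes) and positive for 1. Without T98G PEPD-OE replicate 2 the counts were 52 and 3. Leaving out genes with an opposite partner, 37 of 43 were higher in U251. Interferons act through receptors that activate STAT and IRF factors, which bind a short element in the promoters of these genes, and the products restrict viral replication.

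The promoters of 4 of these genes are shown because they carry that element and because the results turn on the genes, 1 of which (OAS3) reversed between the conditions. They were picked with their values known. Each is the 250 bases before the RefSeq gene start (GRCh38.p14), on the gene's strand, with matches to the core of the interferon-stimulated response element in capitals. The core was searched as GAAA, any 2 bases and GAAA, or on the other strand TTTC, any 2 bases and TTTC.
IFI27 (chr14:94110486-94110735, plus strand): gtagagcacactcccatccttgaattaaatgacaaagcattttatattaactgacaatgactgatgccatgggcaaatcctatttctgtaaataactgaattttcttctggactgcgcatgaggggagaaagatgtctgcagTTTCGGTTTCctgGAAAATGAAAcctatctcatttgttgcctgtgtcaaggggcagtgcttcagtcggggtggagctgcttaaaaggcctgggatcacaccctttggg
IFI6 (chr1:27672193-27672442, minus strand): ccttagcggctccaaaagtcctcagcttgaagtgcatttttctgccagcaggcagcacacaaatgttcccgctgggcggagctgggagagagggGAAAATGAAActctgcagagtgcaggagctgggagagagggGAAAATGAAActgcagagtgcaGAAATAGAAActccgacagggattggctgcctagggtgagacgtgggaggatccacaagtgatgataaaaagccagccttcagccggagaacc
RSAD2 (chr2:6877527-6877776, plus strand): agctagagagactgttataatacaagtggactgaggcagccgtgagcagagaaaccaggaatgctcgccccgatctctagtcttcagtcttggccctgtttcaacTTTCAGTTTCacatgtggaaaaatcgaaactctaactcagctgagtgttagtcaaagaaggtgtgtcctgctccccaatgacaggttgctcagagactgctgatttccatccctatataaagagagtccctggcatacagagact
OAS3 (chr12:112938224-112938473, plus strand): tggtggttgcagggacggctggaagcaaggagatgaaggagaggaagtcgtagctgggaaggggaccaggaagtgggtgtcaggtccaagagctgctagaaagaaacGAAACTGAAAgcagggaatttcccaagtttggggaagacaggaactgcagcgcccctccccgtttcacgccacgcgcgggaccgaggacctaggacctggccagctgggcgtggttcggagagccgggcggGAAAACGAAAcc
The IFI6 window held 3 matches, those of IFI27 and OAS3 2 each and that of RSAD2 1. In the 35116 RefSeq windows of this length, 3.02% held a match. Of the 55 list members found in that table, 31 (56.4%) held one, and of the 45 of those that were higher in U251, 28 did. A member counted when any window under its symbol held a match, whereas the 3.02% is a share of single windows. A match is a run of letters and not a measured binding site.

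IFI27, an interferon-induced membrane protein, stood at 175, 229 and 322 CPM in U251 PEPD-OE and 1.48, 3.12 and 0 in T98G PEPD-OE, 3 counts in all. The ratio of scaled counts was 168 (95% counting interval 57.4 to 819, adjusted p = 4.31e-39). In NC the T98G libraries stood at 88.6, 83.2 and 72.8 CPM and the U251 libraries at 454, 375 and 397, a log2 fold change of -2.34. The line difference was thus present in both conditions and larger under PEPD-OE (adjusted p of the interaction = 5.5e-15). IFI6, another interferon-induced membrane protein, stood at 562, 636 and 715 CPM in U251 and 10.4, 6.23 and 9.97 in T98G (log2 fold change -6.14, SE 0.19, adjusted p = 3.14e-68), against -1.99 in NC. RSAD2 (opposite CMPK2), the antiviral enzyme viperin, stood at 52.7, 54.9 and 45.9 CPM in U251 with 1 count in T98G. CMPK2 (opposite RSAD2) had 0 counts in T98G and 59 in U251.

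OAS3, which senses double-stranded RNA, changed direction between the conditions. It was higher in U251 under PEPD-OE, at 178, 179 and 185 CPM against 13.3, 9.35 and 17.1 in T98G (log2 fold change -3.74, adjusted p = 1.36e-36). Under NC it was higher in T98G, at 306, 322 and 311 CPM against 235, 202 and 201 in U251 (log2 fold change 0.56, adjusted p = 5.91e-05). MX1 (opposite MX1-AS1), a dynamin-like antiviral GTPase, stood at 212, 267 and 229.6 CPM in U251 and 5.92, 12.5 and 7.12 in T98G under PEPD-OE (-4.79, adjusted p = 3.99e-45). Under NC it did not pass between the lines (-0.20, adjusted p = 0.179), and the interaction was called (adjusted p = 1.85e-33). USP18, which restrains interferon signalling, behaved likewise, at 15.8 ± 2.03 CPM in U251 against 1 count in T98G. PRAL (opposite XAF1, an interferon-induced apoptosis factor) stood at 406 ± 56.8 CPM in T98G and 2543 ± 464 in U251 under PEPD-OE, and at 5687 ± 208 and 2178 ± 208 under NC, calls in opposite directions. XAF1 itself had log2 fold changes of -2.81 and 1.19. ISG15 (opposite AL645608.3), named after its values were seen, was higher in U251 in both conditions (-5.58 and -2.31).

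The members higher in T98G were GBP2, IFITM2 and EPSTI1, named because they are few. GBP2, a guanylate binding protein, stood at 90.2, 114 and 117 CPM in T98G and 58.8, 57.3 and 45.9 in U251 (1.00, adjusted p = 1.42e-06). IFITM2, a membrane protein against viral entry, stood at 16.3, 37.4 and 25.6 and 7.53, 3.58 and 10.7 CPM (1.81, adjusted p = 0.000113). EPSTI1 had 4 counts in T98G and 0 in U251, and lost its call without T98G PEPD-OE replicate 3 or any of the 3 U251 PEPD-OE libraries (adjusted p = 0.067 to 0.107).

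Antigen presentation genes did not follow in one direction, 7 of 21 tested higher in T98G and 7 in U251. These counts without T98G PEPD-OE replicate 2 were 8 and 9 of 23. HLA-C, a class I heavy chain, stood at 265, 315 and 356 CPM in T98G and 9.04, 17.9 and 10.7 in U251 (4.60, adjusted p = 4.26e-51). TAP1 (opposite PSMB8-AS1), the peptide transporter, was higher in U251, at 67.6 ± 18 against 8.52 ± 3.52 CPM. Class I genes are near-identical copies with many alleles, so counting against 1 reference can split or lose their reads, and the HLA values are uncertain. CD74, the class II invariant chain, stood at 2.96, 15.6 and 12.8 CPM in T98G and 0, 1.19 and 0 in U251 (21 against 1 counts). It is also a gene of macrophages and B cells, and their part in its difference was not tested. B2M, the class I light chain, did not pass (-1.12, adjusted p = 0.102). It stood at 45.9, 182 and 67 CPM in T98G, high in replicate 2, and at 196, 208 and 229.6 in U251. Without T98G PEPD-OE replicate 2 it was called higher in U251 (-1.91, adjusted p = 0.0137), and so it was in the edgeR fit without robust estimation of the spread (-1.12, adjusted p = 4.15e-06).

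**Figure D3:**
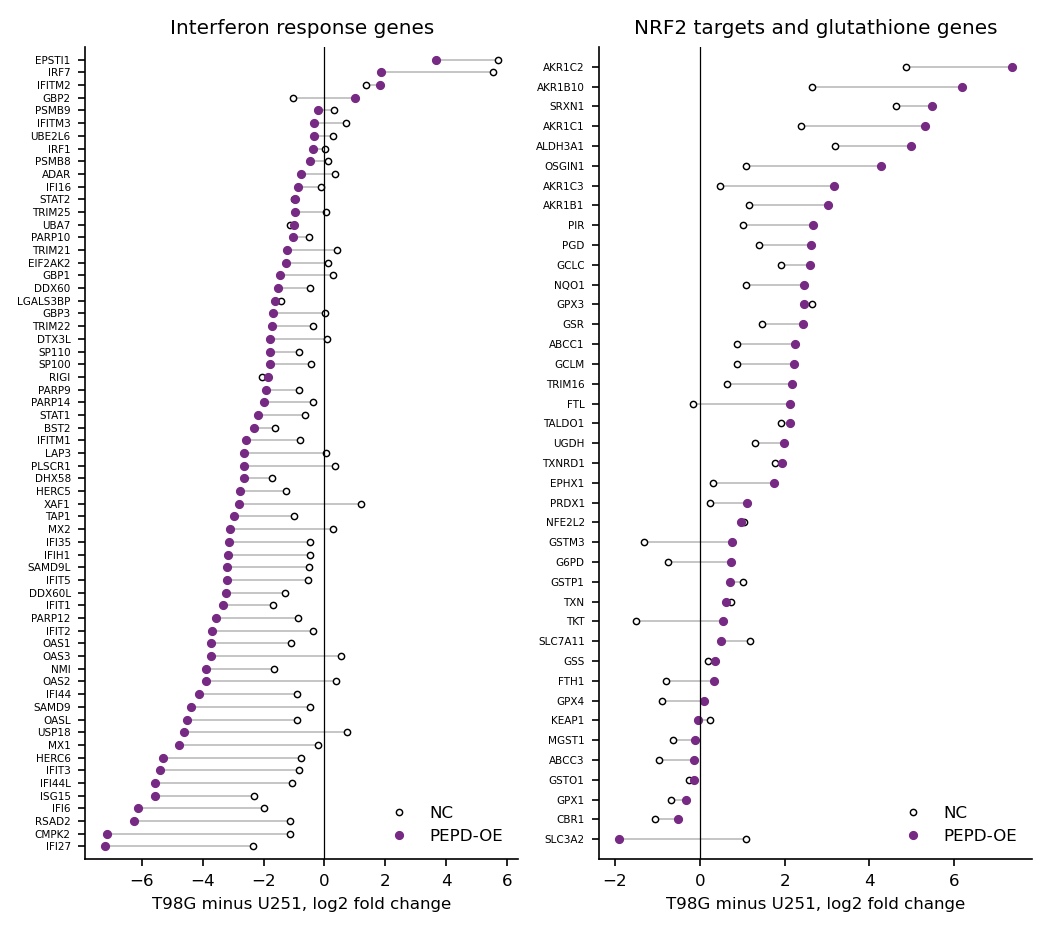
Each row is 1 tested gene of the list, with its log2 fold change, T98G minus U251, in the NC libraries (open circle) and in the PEPD-OE libraries (filled). Most interferon response genes sit further left under PEPD-OE, 45 of 63 with a called negative interaction, and NRF2 genes further right, 20 of 40 with a called positive one.

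Genes of the antioxidant response were higher in T98G. NRF2 is the transcription factor that raises glutathione synthesis, thioredoxin recycling and carbonyl reduction under oxidative or electrophilic stress. Of 40 tested targets and glutathione genes, 30 were higher in T98G, 1 in U251 and 9 did not pass (median 1.96). In NC, 22 were higher in T98G and 8 in U251 (median 0.95), and 20 had a positive called interaction (14.1% over all genes). AKR1C2, an aldo-keto reductase, stood at 840.1, 785 and 889 CPM in T98G and 3.01, 1.19 and 9.61 in U251 (log2 fold change 7.37, SE 0.21, adjusted p = 1.21e-73). In NC it stood at 91.3 ± 12.3 and 2.92 ± 0.602 CPM, a smaller difference of 4.86 (adjusted p of the interaction = 0.0075). AKR1C1, its near-identical neighbour, was higher by 5.31 and AKR1B10 by 6.18. Reads can be split between AKR1C1 and AKR1C2, so their separate values are uncertain.

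SRXN1, the sulfiredoxin that repairs peroxiredoxins, stood at 209, 207 and 208 CPM in T98G and 9.04, 5.97 and 0 in U251 (5.47, adjusted p = 1.5e-43), and its interaction was not called. GCLM, the modifier subunit of glutathione synthesis, NQO1 (a quinone reductase, opposite AC092115.2) and FTL (ferritin light chain) were higher in T98G by 2.22, 2.46 and 2.14, and were named after their values were seen. FTL was not called in NC (-0.15, adjusted p = 0.217). The single member higher in U251 was SLC3A2, the heavy chain of amino acid exchangers, at 178, 217 and 189 CPM against 42.9, 59.2 and 54.1 in T98G (-1.90). Under NC it was higher in T98G (1.08, adjusted p = 2.92e-11). The core letters of the antioxidant response element, TGACNNNGC, or their reverse, stood in 12 of the 37 list members with a RefSeq window (32.4%), against 10.9% of all windows, and in 5 of the 22 that were higher in T98G. Members were again counted by symbol, over any of their windows, and the 10.9% by single window.

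The amino acid response went the other way. Its members, targets of ATF4 that raise amino acid uptake and serine synthesis when amino acids run short, were higher in U251 for 12 of 27 and higher in T98G for 5 (median -0.41). In NC the counts were 4 and 15 (median 0.98), and 19 had a called negative interaction. PSAT1, a serine synthesis enzyme, stood at 2.96, 7.79 and 7.12 CPM in T98G and 33.1, 26.3 and 27.8 in U251 under PEPD-OE (-2.24, adjusted p = 3.88e-07). Under NC it was higher in T98G, at 67.2 ± 8.52 against 16.3 ± 4.10 CPM (2.04, adjusted p = 1.43e-11). ATF5 (opposite NUP62) was higher in U251 (-4.00) under PEPD-OE and not called in NC (0.35), with a called interaction. DDIT3 (opposite MARS1), the stress factor CHOP, was higher in U251 in both conditions (-2.21 and -0.92).

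Genes of proline metabolism, the pathway that receives the product of prolidase, showed no common direction. Of 17 tested, 5 were higher in T98G, 3 in U251 and 9, PEPD included, did not pass. PYCR1 (opposite PYCR1-AS1), which makes proline in mitochondria, stood at 48 ± 7.17 CPM in T98G and 13.1 ± 3.16 in U251 (1.86, adjusted p = 3.26e-08). OAT, which feeds ornithine into proline synthesis, was higher in T98G by 1.80, and neither was called in NC (0.58 and 0.10).

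Energy metabolism differed in a few named steps. LDHA, which turns pyruvate into lactate, stood at 257, 248 and 293 CPM in T98G and 12.1, 0 and 12.8 in U251 (log2 fold change 4.99, SE 0.24, adjusted p = 1.38e-36). In NC the levels were 278 ± 9.76 and 4.68 ± 3.01 CPM, and the interaction was not called. LDHB, the other subunit, named after its values were seen, stood at 146 ± 24.3 and 70.5 ± 4.97 CPM. HK2 (opposite HK2-DT), a hexokinase, and SLC2A3, a glucose transporter, were higher in T98G by 1.89 and 1.73. Of 22 tested glycolysis genes, 12 were higher in T98G and 2 in U251 (median 0.59), against 8 and 4 in NC, and 10 had a called positive interaction. Counts under MIF-AS1 (opposite MIF) stood at 2599, 2976 and 2903 CPM in T98G and 3.01, 1.19 and 4.27 in U251. MIF, a cytokine that also acts as a tautomerase, stood at 90.0 ± 10.9 and 1.70 ± 1.80 CPM under its own name.

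Among genes induced by low oxygen, 12 of 26 were higher in T98G and 4 in U251. CA12, a carbonic anhydrase, stood at 204, 203 and 205 CPM in T98G and 1.51, 1.19 and 1.07 in U251, a ratio of 166 (95% counting interval 56.3 to 807), and differed less in NC (36.1 ± 6.97 against 2.49 ± 2.16 CPM, adjusted p of the interaction = 0.00449). NDRG1, a stress-induced gene, stood at 567 ± 1.44 against 23.7 ± 3.02 CPM. SCD, the stearoyl-CoA desaturase, was higher in T98G by 1.18 and not called in NC (-0.12). The lipid synthesis list itself was split, 6 and 6 of 24, and without T98G PEPD-OE replicate 2 6 and 4 of 27.

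Transcripts of the mitochondrial genome were higher in T98G under PEPD-OE. Of the 13 protein genes, 12 were called higher in T98G (median 1.00), and MT-ATP8 did not pass, except without T98G PEPD-OE replicate 1 (0.24, adjusted p = 0.0486) and with relative log expression (RLE) scaling (0.22, adjusted p = 0.0373). MT-ND5 lost its call without T98G PEPD-OE replicate 1 (adjusted p = 0.0595) or U251 PEPD-OE replicate 2 or 3 (0.0621 and 0.0607). The 13 protein genes held 9.32%, 7.5% and 8.2% of the counts in the T98G PEPD-OE libraries and 5.19%, 3.51% and 3.44% in the U251 PEPD-OE libraries. In NC none was called higher in T98G and 2 were higher in U251, and 9 had a called positive interaction. MT-CYB, a subunit of complex III, stood at 8376, 6299.6 and 6669 CPM in T98G and 3372, 2159.6 and 2281 in U251 (1.45, adjusted p = 0.000134). The share of mitochondrial counts can also move with RNA quality, and its part was not tested. Of 26 tested nuclear genes of the respiratory chain, 8 were higher in T98G and none in U251, and without T98G PEPD-OE replicate 2 8 and 1 of 28. UQCRH was among those higher in T98G (1.26, adjusted p = 3.43e-12).

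Cytosolic ribosomal protein genes were shifted a little and in both conditions. Of 64, 39 were higher in T98G and 3 in U251 (median 0.42). Without T98G PEPD-OE replicate 2 the counts were 33 and 4 of 64. In NC the counts were 33 and 7. RPL7 was the furthest, at 473, 564 and 557 CPM in T98G and 176, 180.3 and 169 in U251 (1.60, adjusted p = 9.98e-27), followed by RPS3 (1.40). Ribosomal protein genes have many processed copies in the genome, which can share their reads.

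Genes of growth signalling were more often higher in U251 under PEPD-OE and in T98G under NC. Of 15 tested feedback genes and targets of the EGFR and MAPK pathway, 9 were higher in U251 and 4 in T98G (median -0.69). In NC the counts were 3 and 7 (median 0.86), and 10 had a called negative interaction. TGFA, a ligand of EGFR, had 0 counts in T98G and stood at 33.1, 46.6 and 36.3 CPM in U251, at least 26.2-fold higher. FOS was higher in T98G, at 31.9 ± 7.48 against 7.45 ± 2.33 CPM. MYC, a transcription factor of growth, was higher in T98G as well (1.21, adjusted p = 1.51e-05), by less than in NC (2.44).

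YAP and TEAD, the effectors of the Hippo pathway that respond to stiffness and cell contact, gave a mixed list, with 11 of 24 targets higher in U251 and 10 in T98G. In NC, 2 were higher in U251 and 12 in T98G, and 11 had a called negative interaction. CCN2 (opposite AL133346.1), connective tissue growth factor, stood at 524, 517 and 436 CPM in U251 and 34, 45.2 and 31.3 in T98G (-3.74, adjusted p = 3.41e-50). ANKRD1 had 0 counts in T98G and 65 in U251. NT5E, the ecto-nucleotidase CD73, stood at 99.6 ± 7.81 CPM in U251 and 3.97 ± 0.898 in T98G, and in NC at 48.9 ± 21.6 and 46.1 ± 11.7, where it did not pass (adjusted p of the interaction = 4.14e-16). TGFB2, a ligand of the TGF-beta family, was higher in T98G, at 108, 81 and 104 CPM against 9.04, 9.55 and 6.41 in U251. CAV1, the coat protein of caveolae, was called in opposite directions, -1.36 in PEPD-OE and 0.90 in NC.

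Most replication genes did not pass under PEPD-OE. Of 35 tested genes of the G1/S transition, 11 were higher in U251, 1 in T98G and 23 did not pass (median -0.44). In NC, 18 were higher in T98G and 1 in U251 (median 0.69), and 14 had a called negative interaction. UHRF1, which reads hemimethylated DNA, stood at 41.4, 60.8 and 59.8 CPM in T98G and 115, 129 and 129 in U251 (-1.21), and in NC was higher in T98G (0.84). Of 44 genes of mitosis, 30 did not pass, 9 were higher in T98G and 5 in U251, and without T98G PEPD-OE replicate 2 11 and 6 of 45. TOP2A, a topoisomerase of dividing cells, was higher in T98G by 1.10.

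At 9p21, the segment often lost in glioblastoma, the inhibitors CDKN2A and CDKN2B had no counts in U251. CDKN2B, an inhibitor of CDK4 and CDK6, stood at 26.6, 15.6 and 11.4 CPM in T98G with 0 counts in U251, at least 14.5-fold higher (adjusted p = 3.56e-09). CDKN2A (opposite CDKN2B-AS1) had 11 counts in T98G and 0 in U251, too few for the test. MTAP (opposite AL359922.2), which lies beside them and is often lost with them, was present in both, at 87.4, 128 and 111 CPM in U251 and 34, 31.2 and 32.8 in T98G (-1.74, adjusted p = 1.6e-13). In NC MTAP did not pass between the lines (-0.28, adjusted p = 0.261), and the interaction was called (adjusted p = 2.99e-05). Under PEPD-OE, 2 of 9 tested genes of the segment were higher in T98G and 3 in U251.

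Of 13 tested p53 targets, 8 were higher in U251 and 1, the cyclin gene CCNG1, in T98G (median -0.96), against 3 and 1 in NC. CCNG1 lost its call without T98G PEPD-OE replicate 3 or U251 PEPD-OE replicate 1 or 2 (adjusted p = 0.0577 to 0.121). GDF15, a stress cytokine, stood at 84.4, 80.0 and 103 CPM in U251 and 7.40, 0 and 1.42 in T98G (-4.84, adjusted p = 3.99e-24), and did not pass in NC (-0.34). MDM2 (opposite AC025423.4), a ubiquitin ligase, was higher in U251 (-1.60, adjusted p = 5.31e-07). CDK6 (opposite CDK6-AS1) was higher in U251 (-1.12) and CDK4 (opposite TSPAN31) in T98G (0.55), each called the other way in NC. AXL (opposite AC011510.1), a receptor kinase, was higher in U251 (-0.92) and in T98G under NC (0.75).

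MGMT (opposite AL157832.2), the enzyme that removes alkyl groups left by temozolomide, had 10 counts in T98G and 0 in U251, too few for the test. The counts in T98G allow a bound of at least 4.02-fold higher. NF1 (opposite EVI2A), a RAS inhibitor, was also not tested, at 16 ± 6.90 and 3.68 ± 2.20 CPM. Of 21 tested repair genes, 6 were higher in T98G and 4 in U251. MPG (opposite NPRL3), a glycosylase, was higher in T98G (0.99, adjusted p = 0.0232). Without T98G PEPD-OE replicate 2 its call was lost (0.86, adjusted p = 0.0913), and the repair counts were then 5 and 2 of 24. MPG also lost its call without T98G PEPD-OE replicate 3 or U251 PEPD-OE replicate 2 (adjusted p up to 0.0974).

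Positional genes also marked the lines. Of 13 tested genes of the HOX clusters, 6 were higher in U251 and 2 in T98G (median -1.14). HOXB7, a factor of trunk identity, had 0 counts in T98G and stood at 33.1, 45.4 and 33.1 CPM in U251, at least 25.1-fold higher. HOXA-AS3 (opposite HOXA7) stood at 209 ± 11.9 CPM in U251 and 14.2 ± 7.52 in T98G. Of 9 tested imprinted genes, 5 were higher in U251 and 1, MAGED2, in T98G. MAGED2 lost its call without T98G PEPD-OE replicate 2 (0.54, adjusted p = 0.107), and the counts were 5 and 0 of 10. PEG10 (opposite SGCE) stood at 252 ± 11.4 against 91.4 ± 15.7 CPM. None of the 36 cancer-testis antigen genes had enough counts to be tested.

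Some of the largest reversals between the conditions lay outside these lists. SGPP2, a sphingosine phosphate phosphatase, stood at 212, 134 and 138 CPM in U251 PEPD-OE with 3 counts in T98G PEPD-OE. In NC it was higher in T98G, at 196, 162 and 203 CPM against 73.4, 67 and 120.4 (log2 fold change 1.10, adjusted p = 3.67e-08). Under PEPD-OE the ratio of scaled counts, U251 over T98G, was 105 (95% counting interval 35.8 to 514), and the interaction was called (adjusted p = 2.19e-27). Counts under CCDC152 (opposite SELENOP, a selenium transport protein) stood at 1482, 1619 and 1455 CPM in T98G and 85.9, 83.6 and 65.1 in U251, with a line difference of 4.29 in PEPD-OE and -1.82 in NC. SELENOP under its own name stood at 58.4 ± 5.82 CPM in T98G with 0 counts in U251. FSIP1 (opposite THBS1, a matrix glycoprotein) and THBS1 itself were both higher in U251 under PEPD-OE (-2.32 and -1.31) and in T98G under NC (1.92 and 2.05).

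BCL6 (opposite AC072022.2), a transcriptional repressor, went the other way, 1.40 in PEPD-OE and -2.19 in NC. TBPL1 (opposite SLC2A12) did so too, 1.33 and -3.10. KRT80, a keratin, stood at 36.5 ± 11.3 CPM in T98G NC with 2 counts in T98G PEPD-OE, and at 16 ± 4.03 and 20.9 ± 0.553 CPM in U251. Among genes called in PEPD-OE with a called interaction and no call in NC were CXCL8, the chemokine interleukin 8, with 1 count in T98G and 27.9 ± 7.49 CPM in U251, and GFRA1, a co-receptor of neurotrophic factors, with 1 count and 18 ± 2.02 CPM. In the other direction RCN3, a collagen-associated calcium binding protein, and SLC25A27, a mitochondrial carrier, had 0 counts in U251 PEPD-OE and were at least 19.7-fold and 18.1-fold higher in T98G. CYB5D1 (opposite NAA38) was called in opposite directions (0.68 and -2.89), and lost its PEPD-OE call without U251 PEPD-OE replicate 3 (0.56, adjusted p = 0.0723).

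The line difference also followed the chromosomes, and in much the same way in both conditions. The median log2 fold change of the tested genes was 0.73 on chromosome 22, 0.70 on chromosome 21 and 0.57 on chromosome 20, where it was 0.61, 0.78 and 0.53 in NC. On chromosome 21, 48 of 87 genes were higher in T98G (55.2%) and 5 in U251. The lowest medians were those of chromosomes 4, 6, 14 and 19, at -0.57, -0.41, -0.40 and -0.41, and in NC at -0.29, -0.46, -0.36 and -0.53. Others were less extreme, such as -0.31 on chromosome 7, -0.27 on chromosome 3, 0.46 on chromosome 18 and 0.45 on chromosome 8. On chromosome 19, 253 of 611 genes were higher in U251 (41.4%). Neighbouring genes are not independent, so these medians are a description with no test. The mitochondrial genome and chromosome 13 differed most between the conditions, at 1.02 against -0.09 and 0.00 against 0.39.

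**Figure D4:**
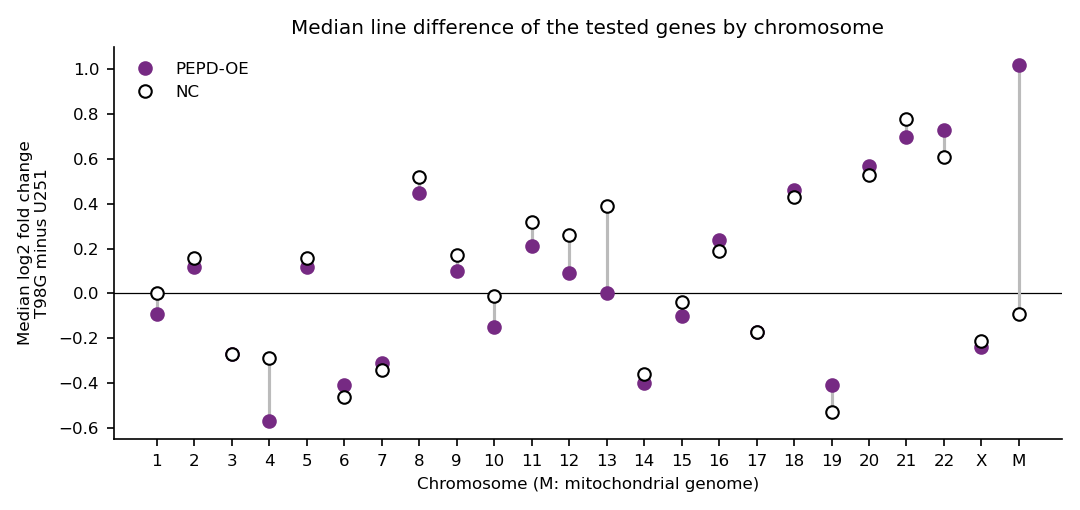
The median log2 fold change, T98G minus U251, of the tested genes of each chromosome is plotted for the PEPD-OE libraries (filled) and the NC libraries (open). Both points sit above 0 on chromosomes 20, 21 and 22 and below 0 on chromosomes 4, 6, 14 and 19, and the mitochondrial genome stands at 1.02 in PEPD-OE and -0.09 in NC.

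Read across the lists, the shares called in PEPD-OE and in NC lay close together for collagens, 12 and 12 of 17 higher in T98G, and for neural stem factors, 13 and 12 of 18 higher in U251. For genes higher in T98G they were 1 and 18 of 35 in the G1/S list, and 12 and 0 of 13 in the mitochondrially encoded list. Close shares did not mean equal differences. Of the collagen chains, 6 had a positive and 3 a negative called interaction, against 2 and 1 of the neural stem factors.

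**Figure D5:**
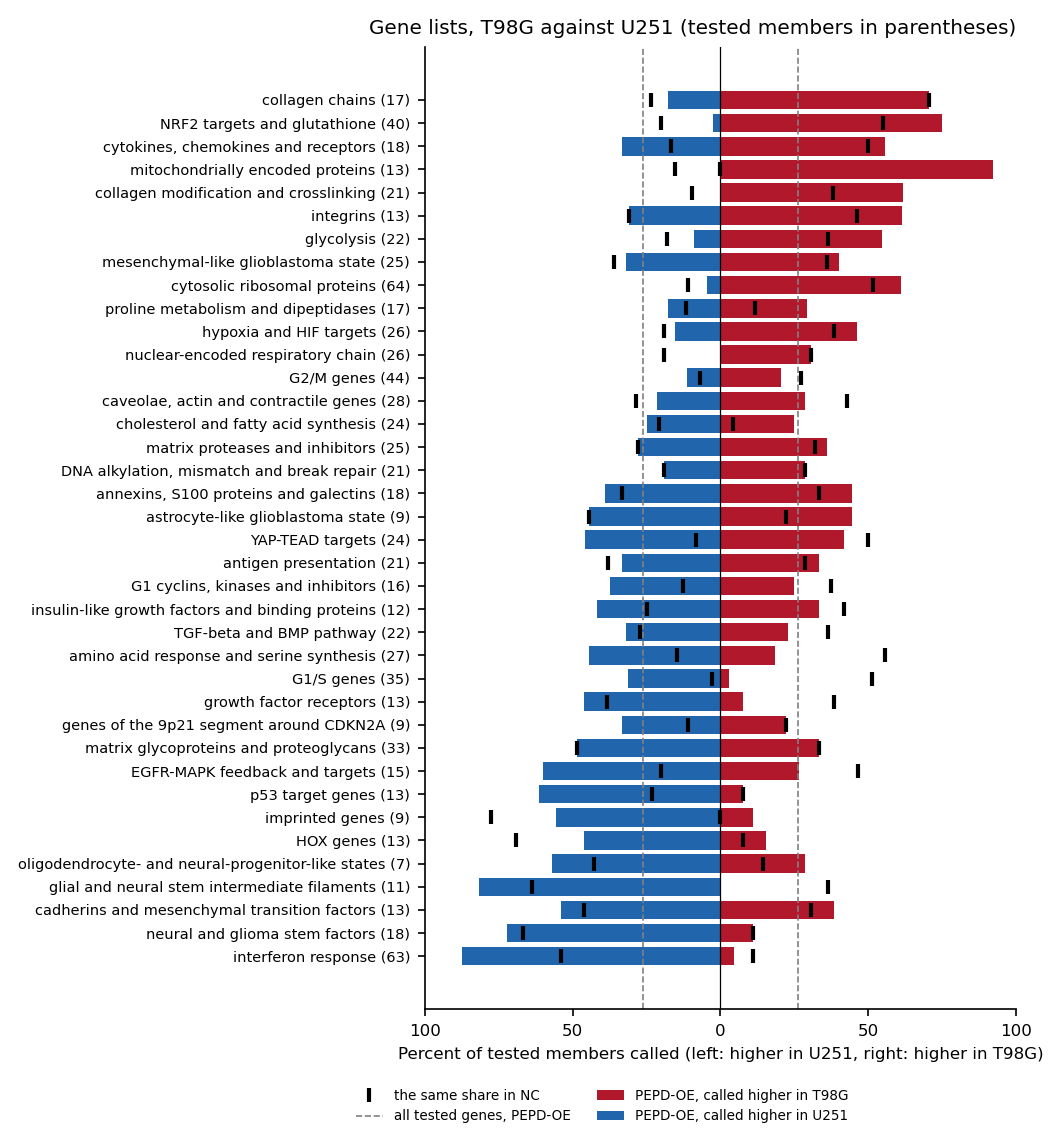
For each gene list with at least 5 tested members, cell type marker lists left out, bars give the percent of tested members called higher in T98G (right) and in U251 (left) under PEPD-OE, black ticks give the same shares under NC, and dashed lines give the share over all tested genes (26.3% in each direction). Lists are ordered by their median log2 fold change, with the interferon response lowest at -2.64 and collagen chains and NRF2 targets highest at 1.96 each.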

How the data were processed

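RNA-seq counts per gene were compared between 3 T98G and 3 U251 libraries over-expressing PEPD, with 3 NC libraries of each line in the same fit. The members and gene lists were chosen with earlier results of these data known. Per the labels' protocols, poly(A) RNA was made into strand-marked libraries and read as 150-base pairs. The authors deposited raw counts per gene. Tools listed in the submitters' processing notes, with no roles, are HISAT2, featureCounts, Subread, fastp and FastQC, and the build is GRCh38; the annotation release and strand setting are not stated there. Positions and opposite-strand overlaps were taken from GENCODE release 29, which held 92.1% of the genes in the table.

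The main test was edgeR 4.0.16 (R 4.3.3): filterByExpr with a minimum count of 10, TMM scaling, robust quasi-likelihood F-tests on 4 group means (8 residual degrees of freedom) and Benjamini-Hochberg adjustment over the 8773 tested genes at 0.05. SE is the absolute log2 fold change over the square root of F. CPM uses the counts of tested genes times the TMM factor. For a group at 0 counts, folds are lower bounds set by 3 counts over that group. These bounds take the counts of the other group as observed, without its counting error. A group with 1 to 3 counts is given as a ratio with an exact 95% interval, which covers counting error only. DESeq2 1.42.0, other scalings and filters, a replicate block, genes without opposite-strand overlap and libraries left out in turn were alternatives.

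The named genes were a panel of 27 genes (PEPD and glioblastoma genes); per direction the 12 largest called differences without and 5 with an opposite partner (at least 10 CPM, no overlap, established symbols); up to 4 called members per list (at least 5 CPM); and per sign up to 6 reversed and 6 PEPD-OE-only genes by interaction. Exceptions to a list's direction, blood-cell genes and a few list members were named after their values were seen. Some genes of the panel and lists are not reported here. On simulated counts for this comparison (8332 genes), 53.1% of 96 genes changed by 1 on the log2 scale and 97.8% of 93 changed by 2 were called, with 6 unchanged genes called. In that simulation all 4 groups shared 1 mean per gene, apart from the changed genes in T98G PEPD-OE. In the data 52.6% of the tested genes were called, so the simulated shares need not hold there. A permutation test of 3 against 3 libraries cannot go below 0.1, so none was used.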

Additional observations from a re-analysis of the deposited data

Results flagged for a closer look

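The line difference itself, T98G minus U251, differed between PEPD-OE and NC for 2428 of the 8773 tested genes (27.7%) by the interaction term of the edgeR fit at an adjusted p under 0.05. Of the 182 tested genes that the text names for their values, 86 were among them, 45 with a line difference further towards U251 under PEPD-OE and 41 further towards T98G. Named genes were in part chosen for this interaction, so their share is a description. Groups of 3 libraries are too small for a formal test of single outlying libraries, and fits with each library left out in turn are given below.

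For antiviral and antigen presentation genes, the log2 fold change in PEPD-OE minus that in NC was -4.59 for MX1, -4.30 for OAS3, -4.15 for IFI6, -4.03 for PRAL, -4.00 for XAF1, -3.26 for ISG15, -1.99 for TAP1 and -1.27 for HLA-C. It was positive in this group at 2.02 for GBP2.

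For matrix, adhesion and growth factor genes, the log2 fold change in PEPD-OE minus that in NC was -4.50 for GDF15, -4.45 for NT5E, -4.23 for FSIP1, -3.36 for THBS1, -3.01 for EFEMP1, -2.93 for CDH2, -2.65 for CCN2, -2.32 for TNC, -2.26 for CAV1, -1.91 for EPHA2, -1.69 for EGFR, -1.67 for AXL, -1.39 for COL13A1 and -1.21 for MET. It was positive in this group at 0.87 for COL6A1, 0.89 for FN1, 0.96 for COL6A2, 1.36 for IGFBP5, 1.43 for IGFBP4, 1.67 for TGFB2, 1.80 for COL1A2, 1.82 for P4HA2, 2.34 for PDGFRA, 2.53 for CSPG4 and 2.61 for HSPG2.

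For stress and metabolism genes, the log2 fold change in PEPD-OE minus that in NC was -4.35 for ATF5, -4.28 for PSAT1, -2.99 for SLC3A2 and -1.28 for DDIT3. It was positive in this group at 0.53 for MT-ATP8, 1.28 for PYCR1, 1.31 for SCD, 1.35 for GCLM, 1.38 for NQO1, 1.42 for GLUL, 1.45 for EPAS1, 1.52 for MIF-AS1, 1.70 for OAT, 1.74 for MT-CYB, 2.29 for FTL, 2.51 for AKR1C2, 2.93 for AKR1C1 and 3.52 for AKR1B10.

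Among the other named genes it was -3.76 for IGFBP3, -2.05 for UHRF1, -2.02 for CDK6, -1.52 for SOX9, -1.46 for MTAP, -1.23 for MYC, -1.03 for MDM2 and -0.89 for HOXA-AS3. The positive values were 0.71 for TOP2A, 0.99 for CDK4, 1.04 for GFAP, 1.51 for MAGED2, 1.61 for ANXA4, 2.61 for CLDN4, 3.57 for CYB5D1, 3.59 for BCL6, 4.43 for TBPL1 and 6.11 for CCDC152.

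A further 16 genes had a group with 3 or fewer counts, where the size of the fitted interaction depends on the prior count, and are given by the adjusted p of the interaction alone. Those with a negative interaction were SGPP2 (2.19e-27), PRKG1-AS1 (2.2e-12), CMPK2 (1.4e-05), USP18 (1.68e-06), KRT80 (1.63e-10), GFRA1 (1.56e-05), RSAD2 (2.2e-09), DKK1 (1.09e-08), TGFA (0.00967), IFI27 (5.5e-15) and CXCL8 (0.00012). Those with a positive one were PCOLCE (0.00974), CA12 (0.00449), SELENOP (0.0109), SLC25A27 (0.00241) and RCN3 (0.00319).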

How the results depend on the processing

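Counts of called genes kept within 1.5 times of the values reported under other scalings and filters, the libraries of each comparison alone and the removal of the most abundant genes. Between 48.6% and 51.8% of the PEPD-OE calls were higher in T98G under all alternatives. DESeq2 called 3878 genes in PEPD-OE and 766 negative interactions. Against an absolute log2 fold change of 0.5, 1535 genes were higher in U251 under PEPD-OE, 2595 were called in NC (1279 higher in T98G, 1316 in U251), 1473 interactions were called (784 positive, 689 negative) and 1423 genes agreed in direction. With only genes free of an opposite-strand overlap, which are fewer, 2043 were called in PEPD-OE (1029 and 1014), 1843 in NC (922 and 921), 917 interactions (472 and 445) and 1042 in the same direction. Leaving out 1 library at a time gave 4281 to 4666 calls in PEPD-OE (2164 to 2317 higher in T98G, 2117 to 2349 in U251), 3810 to 4133 in NC (1911 to 2063 and 1899 to 2070), 2116 to 2389 interactions (1096 to 1224 and 1020 to 1165) and 2242 to 2487 in the same direction. Leaving out both T98G libraries of replicate 2, an alternative chosen after the blood-cell transcripts were seen, gave 4389, 3874, 2030 and 2185.

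With the replicate number as a block, 4635 genes were called in PEPD-OE (2320 and 2315), 4290 in NC, 2429 interactions and 2463 in the same direction. The block changed no call of a named gene other than HBB, which gained one. The deviations of T98G and U251 PEPD-OE libraries with the same number correlated at 0.069, 0.034 and 0.077. Their highest correlations with another number were -0.025, -0.009 and -0.009. Those of the NC libraries with the same number were -0.004, 0.023 and 0.009. Values this small cannot tell whether libraries with the same number share more than the number. Each T98G PEPD-OE library correlated best with its own number, and T98G NC replicate 1 did not.

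No named gene reversed its PEPD-OE direction under any alternative that tested it. Against a log2 fold change of 0.5, CDK4, COL1A2, FTH1 and BEST1 were among the genes not called, and DESeq2 did not call MPG, CCNG1, EPSTI1 or CYB5D1. Medians of the astrocyte-like, antigen presentation and DNA repair lists changed sign in 8, 3 and 2 of 18 alternatives, and that of the cytokine list ran from -0.40 to 1.52. The medians of the interferon response (-2.71 to -2.43), NRF2 targets (1.75 to 2.11), collagen chains (1.52 to 2.01) and neural stem factors (-2.24 to -1.20) kept theirs. The cause of these shifts was not tested. At 3 counts equal to 3.2 to 4.67 CPM, differences among genes below that level were not detectable.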

Other observations

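Genes of the contractile cytoskeleton differed between the PEPD-OE lines in named members. TPM2, a tropomyosin, stood at 315, 355 and 342 CPM in T98G and 25.6, 21.5 and 34.2 in U251 (log2 fold change 3.61, adjusted p = 4.23e-46). CALD1, an actin-binding regulator of contraction, stood at 669 ± 62.9 against 156 ± 34.2 CPM, and FLNC (opposite FLNC-AS1), a filamin, stood at 57 ± 8.37 CPM in T98G with 0 counts in U251, at least 46.3-fold higher. Over the list of caveolae, actin and contractile genes, 8 of 28 were higher in T98G and 6 in U251, near the 26.3% of all tested genes in each direction. Calcium-binding S100 proteins went both ways: S100A4 stood at 39 ± 13.5 CPM in T98G and 2.91 ± 0.728 in U251, while S100A2 stood at 2.50 ± 0.934 and 74.2 ± 13.5 and S100A16 at 10.9 ± 4.38 and 77.9 ± 11.5. ANXA4, an annexin, was higher in T98G by 2.79.

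Within the TGF-beta and BMP list, BAMBI, a decoy receptor, was higher in T98G, at 18.2 ± 4.09 against 1.11 ± 1.07 CPM, and ID2 (opposite ID2-AS1), a BMP target, in U251, at 20.5 ± 5.43 against 2.50 ± 0.934 CPM. The list was split, 5 higher in T98G and 7 in U251 of 22, and without T98G PEPD-OE replicate 2 5 and 5 of 23. CSPG4 (opposite AC105020.4), the proteoglycan NG2 of oligodendrocyte precursors and pericytes, stood at 115, 95 and 82.6 CPM in T98G and 18.1, 15.5 and 16 in U251 (2.56, adjusted p = 7.29e-19). ADM, the vasodilator adrenomedullin, and EPAS1, the oxygen-sensing factor HIF-2 alpha, were higher in T98G by 2.52 and 2.14.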
